A study of Homo sapiens with 22 samples.

Results

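The libraries compared here were made in K562 cells with 1 of 2 transposase helpers, hyPBase or hyPBase-centrip. Of the 22 libraries of the series, the 20 whose labels name a single helper were used, 10 for hyPBase and 10 for hyPBase-centrip. The labels of the other 2 libraries contradict each other on the helper, and those were not used here. K562 is an established human erythroleukemia cell line that carries the BCR-ABL1 fusion. In every library the cells were electroporated with 5 µg of a helper plasmid and 5 µg of a barcoded self-reporting transposon (SRT) donor with a puromycin marker. They were then kept in 2 µg/ml puromycin for 11 days, with 3 transfections plated per dish. The helper is the only difference that the labels give, and neither they nor the methods describe what sets hyPBase-centrip apart. The labels do not say which libraries came from separate cultures. Each p-value therefore measures the spread between libraries of a helper, part or all of which may be technical.

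PiggyBac transposase cuts its transposon out of the donor and pastes it into TTAA tetranucleotides. Here the location of each SRT was recovered from RNA libraries. Insertions of a transposase that is not fused to a transcription factor gather at active regions of the genome. Each insertion also has an orientation, which inside a gene is either that of the gene (same-strand) or the reverse (opposite-strand). The measurements below are therefore counts of insertions, not of transcripts, and say where the recovered SRTs lay and in which direction. Placement by the helper and recovery after selection cannot be told apart.

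Insertions were counted over 19970 protein-coding genes and 30321 bins of 100 kb on chromosomes 1 to 22 and X of hg38, which hold 19049403 TTAA sites, 44.7% of them in protein-coding genes. Libraries held 1509672 to 2911515 insertions with hyPBase and 1638175 to 3596762 with hyPBase-centrip. Counts are given per 1000000 insertions of the library (CPM), scaled by the trimmed mean of M values (TMM) for genes and bins. Reads per insertion were 3.87 ± 0.732 with hyPBase and 3.00 ± 0.540 with hyPBase-centrip (mean ± SD, n = 10 each, two-sided permutation test, p = 0.00632). Insertions with 1 read made up 30.2% and 39.8% of a library. The effective number of barcodes ranged from 16.5 to 16.7 with hyPBase and from 16.8 to 17.1 with hyPBase-centrip, with no overlap. These 3 measures move with the helper, and their part in the differences below was not tested except where a value is given. HyPBase-centrip replicate 3 and hyPBase replicate 8 stood apart from the other libraries of their helper in several shares.

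The labelled cell line was checked against its markers. The 12 erythroid marker genes held 17.0 insertions per TTAA over the 20 libraries, against 3.33 over all protein-coding genes, 1.77 over 6 lymphoid markers and 5.51 over 4 myeloid markers. The gene models of HBG2 and HBE1 held 27354 and 24940 of the 74414 erythroid insertions. They are long models, with 1639 and 1542 of the 4380 TTAA sites, against 7 in HBG1. An insertion where gene models overlap counts for each, so these are not separate counts, and the 17.0 mostly describes these 2 models. The median of the 12 genes was 19.5 per TTAA, and GATA1, with only 3 TTAA, lay below the average of all genes at 1.67. Of the 3987 TTAA sites of the 6 lymphoid markers, EBF1 holds 2970, so the 1.77 mostly describes this gene. The median of the 6 was 1.68 per TTAA, but CD2 took 16.8, near the erythroid level, and CD3E 3.50. CDKN2A, CDKN2B and MTAP, which are deleted in K562, held 1 insertion in 1210 TTAA sites.

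The sites below are the TTAA with the most insertions inside the 3 genes that fell and the 3 that rose with the smallest adjusted p-values (edgeR test, below). They are shown because each is the busiest target of the gene it lies in, as 30 bases of the plus strand of hg38, 5′ to 3′, with the TTAA in capitals:

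TRIB3, chr20:366225-366228: ccagagatctctcTTAAaagtgcaaatgca

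GAB2, chr11:78290246-78290249: ttaacagtggggcTTAAagaagtatatgga

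CCDC71L, chr7:106659080-106659083: cccctcttgatcaTTAAtagttctaagaat

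ANKRD11, chr16:89463451-89463454: aagatgtgctttgTTAAacagacggttgaa

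GRB10, chr7:50792164-50792167: taggcctggccttTTAAacagcagcaacga

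MYLK4, chr6:2684723-2684726: gtctagagattatTTAAagtactcgggggg

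In the GENCODE annotation the site in CCDC71L lies in a UTR and the other 5 lie in introns. The TRIB3 site took 219 insertions with hyPBase and 168 with hyPBase-centrip, 14.6% of all insertions in the gene. Its level was 9.49 ± 3.06 CPM with hyPBase and 6.14 ± 1.08 with hyPBase-centrip, and the libraries overlapped. The GAB2 site held 8.16 to 13.6 CPM with hyPBase and 5.76 to 11.0 with hyPBase-centrip. The CCDC71L site held 264 and 258 insertions, or means of 11.0 and 9.30 CPM. In the genes that rose, the ANKRD11 site held 49 and 69 insertions (1.92 and 2.39 CPM). The GRB10 site held 65 and 62 (2.70 and 2.20 CPM), and the MYLK4 site 179 and 220 (7.40 and 7.97 CPM). The counts are not scaled for library depth, and the CPM of the libraries overlapped at each of these sites. In ANKRD11, GRB10, GAB2 and MYLK4 the busiest site held at most 5.09% of the insertions of the gene. All 49 and 69 insertions at the ANKRD11 site were opposite to the gene, whereas the MYLK4 site took 50.3% and 50.0% in the direction of the gene.

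The first comparison asked which protein-coding genes took a larger or smaller share of insertions with hyPBase-centrip. Of 12865 genes that held 10 or more insertions in no fewer than 10 libraries, 200 were lower (1.55% of those tested) and 105 were higher (0.816%). Most changes were small, with a median log2 fold change of -0.18 among the lower genes and 0.22 among the higher ones. The median over all tested genes was 0.00. TRIB3, a pseudokinase of the stress response, and ANKRD11, a chromatin regulator, had libraries that did not overlap between the helpers. Only 11 tested genes (0.0855%) were separated in that way, and each of them passed the test. With the barcodes of a library collapsed, so that each position and orientation counted once, 20 of the 305 called genes still passed and 295 of 296 measured kept their sign. Collapsing caps the count at each TTAA of a library, and the part of this cap in the lost calls was not tested. The 200 lower genes had a median of 8.83 insertions per TTAA over the 20 libraries, and 13 still passed. The 105 higher genes had a median of 4.94, and 7 still passed. With reads per insertion as a further term in the model, 49 still passed. All 305 kept their sign, and their median absolute log2 fold change was 0.17, against 0.19 without the term. The 305 genes were chosen for their change in these same libraries, so a kept sign is no separate support for them. The test was edgeR's quasi-likelihood test with Benjamini-Hochberg adjustment, with 10 libraries per helper, and log2 fold changes are given ± SE.

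TRIB3 (ENSG00000101255.12, chr20:362835-397559) gave the lowest adjusted p-value among the genes that fell. With hyPBase its libraries ranged from 50.9 to 73.9 CPM with a median of 59.5, and with hyPBase-centrip from 36.3 to 48.0 with a median of 42.9. Every hyPBase-centrip library was thus below every hyPBase library. The log2 fold change was -0.50 ± 0.0575 (adjusted p = 1.63e-11), and TRIB3 did not pass with barcodes collapsed (adjusted p = 0.243). GAB2, an adaptor protein that relays BCR-ABL1 signals, ranged from 465 to 567 CPM (median 508) and from 400 to 482 (median 438). Its libraries overlapped, and its log2 fold change was -0.22 ± 0.0274 (adjusted p = 1.73e-10). CCDC71L, a short gene with 106 insertions per TTAA over the 20 libraries, ranged from 92.4 to 128 CPM (median 113) and from 77.8 to 103 (median 88.9). It fell by 0.31 on the log2 scale (adjusted p = 2.24e-07), and did not pass once insertions near gene starts were left out (adjusted p = 0.142).

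A further 8 genes named among those that fell were RANBP9, RTN4, LRBA, NCOA3, IMMP2L, ATF7IP, DNAJC12 and ANTXR2. Their log2 fold changes ranged from -0.28 in DNAJC12, a co-chaperone gene, to -0.15 in IMMP2L, which encodes a mitochondrial inner membrane peptidase. LRBA, a gene of vesicle trafficking, held 848 ± 42.6 CPM with hyPBase and 758 ± 36.7 with hyPBase-centrip. NCOA3, a nuclear receptor coactivator, held 349 ± 12.3 and 306 ± 15.4 CPM. ATF7IP, a partner of the histone methyltransferase SETDB1, held 165 ± 8.54 and 139 ± 15.7 CPM. All 8 had overlapping libraries. RTN4 lost its call with barcodes collapsed (adjusted p = 0.999), and LRBA with a term for reads per insertion (adjusted p = 0.0578).

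Among the genes that rose, ANKRD11 (ENSG00000167522.17, chr16:89267630-89490561) gave the lowest adjusted p-value. Its libraries ranged from 49.7 to 70.8 CPM with hyPBase, with a median of 59.9, and from 73.4 to 95.7 with hyPBase-centrip, with a median of 81.8. Every hyPBase-centrip library lay above every hyPBase library, and the log2 fold change was 0.50 ± 0.0510 (adjusted p = 4.07e-14). The gene model ENSG00000288715 lies inside ANKRD11 and shares its insertions, so the rise of the 2 cannot be told apart (log2 fold change 0.61). GRB10, an adaptor that binds insulin and growth factor receptors, ranged from 50.9 to 74.3 CPM (median 62.9) and from 72.3 to 85.2 (median 76.3). The 2 ranges met at their edges, and the log2 fold change was 0.28 ± 0.0491 (adjusted p = 4.21e-05). MYLK4, a myosin light chain kinase gene, ranged from 125 to 157 CPM (median 140) and from 149 to 178 (median 160), with a log2 fold change of 0.20. With only the odd-numbered replicates GRB10 and MYLK4 did not pass (adjusted p = 0.0843 and 0.133).

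The remaining 9 named genes that rose were ENSG00000267140, TBC1D22A, AGAP1, ARHGDIB, SPATS2L, CUX1, COL23A1, CPPED1 and RAPGEF1. ENSG00000267140 overlaps INO80C, a subunit gene of the INO80 remodeler, which rose with it (log2 fold change 0.23). ARHGDIB, a GDP-dissociation inhibitor gene expressed in blood cells, had the largest change of the 9, from 20.7 ± 2.96 to 27.5 ± 3.65 CPM (log2 fold change 0.41). A single TTAA took 28.0% of its insertions. CUX1, a homeobox transcription factor, had the smallest, from 217 ± 12.4 to 240 ± 11.8 CPM (0.15). CPPED1, a phosphatase gene, did not overlap between the helpers, with at most 113.2 CPM with hyPBase and at least 113.6 with hyPBase-centrip. AGAP1, an Arf GTPase-activating protein gene, went from 101 ± 5.81 to 116 ± 4.90 CPM. Of the named genes, CCDC71L, ATF7IP, DNAJC12, MYLK4, ENSG00000267140, ARHGDIB, CUX1, CPPED1 and RAPGEF1 also lost their call with barcodes collapsed, as TRIB3 and RTN4 did. With a term for reads per insertion, MYLK4, ENSG00000267140, AGAP1, ARHGDIB, CUX1, COL23A1, CPPED1 and RAPGEF1 did not pass, nor did LRBA. ARHGDIB did not pass either with insertions near gene starts left out (adjusted p = 0.0797).

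**Figure D1:**
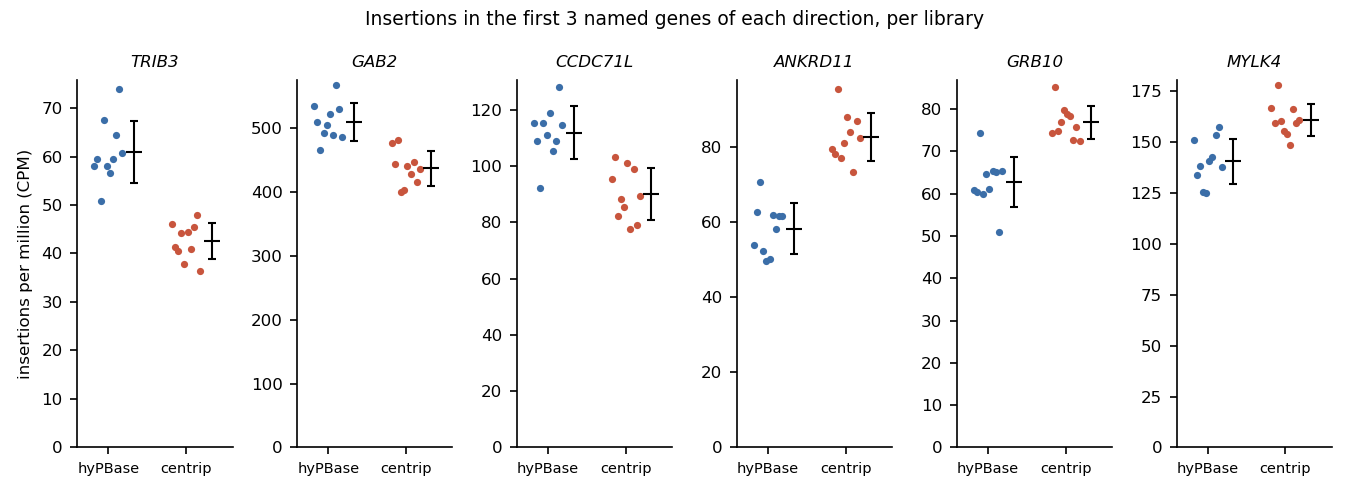
Insertions in CPM (y axis from 0) in TRIB3, GAB2, CCDC71L, ANKRD11, GRB10 and MYLK4, 1 point per library, with hyPBase at the left and hyPBase-centrip (marked centrip) at the right of each panel. The bar beside each group is the mean ± SD over 10 libraries, and only TRIB3 and ANKRD11 show groups that do not overlap.

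The 10 called genes that changed at least 1.5-fold held 187 to 417 insertions over the 20 libraries, apart from ENSG00000288715 with 1999. Apart from that gene model they held few TTAA sites, 23 to 124 each. All 10 were picked out after their values were seen. POLR1H, an RNA polymerase I subunit gene, fell from 6.63 ± 1.35 to 3.84 ± 0.785 CPM, and BAHD1, a gene of heterochromatin formation, from 5.83 ± 1.75 to 3.77 ± 1.11. HJURP, the chaperone that loads the centromeric histone CENP-A, rose from 3.15 ± 1.23 to 5.65 ± 1.08 CPM. HCRTR1, SHANK1, TBATA, GCM2, DIO1 and B3GNT6 rose by log2 values of 0.60 to 0.76.

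The change was spread over most of the gene in some cases and changed direction inside the gene in RTN4. In ANKRD11, 22 of 23 windows of 10 kb were higher on average with hyPBase-centrip, with a median log2 ratio of 0.54. In GRB10, 20 of 21 windows were higher, and in MYLK4, 10 of 11. All 4 windows of TRIB3 were lower, 2 of them with no overlap between the helpers, and 4 of the 5 windows downstream of it were lower too (median log2 ratio -0.24), with overlap in each. The 5 upstream windows had a median log2 ratio of 0.02, 2 of them lower. GAB2 was lower in 18 of 21 windows and LRBA in 57 of 76.

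RTN4, which encodes a reticulon that shapes the endoplasmic reticulum, had a fall in its first 70 kb and a rise in the rest. The cut was set after the windows were seen, so these values are a description with no test. The first 70 kb held 41.8 insertions per TTAA, and its libraries ranged from 374 to 443 CPM with hyPBase (median 427) and from 311 to 372 with hyPBase-centrip (median 343). The rest of the gene held 4.91 insertions per TTAA and ranged from 42.0 to 57.2 CPM (median 52.4) and from 69.3 to 84.0 (median 77.9). In both stretches the libraries of the helpers did not overlap. The log2 ratios were -0.31 and 0.56, so the fall of 0.18 for the whole gene on the log2 scale is a sum of 2 opposite changes. The 5 windows upstream of RTN4 were all lower, with log2 ratios from -0.53 to -0.22.

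**Figure D2:**
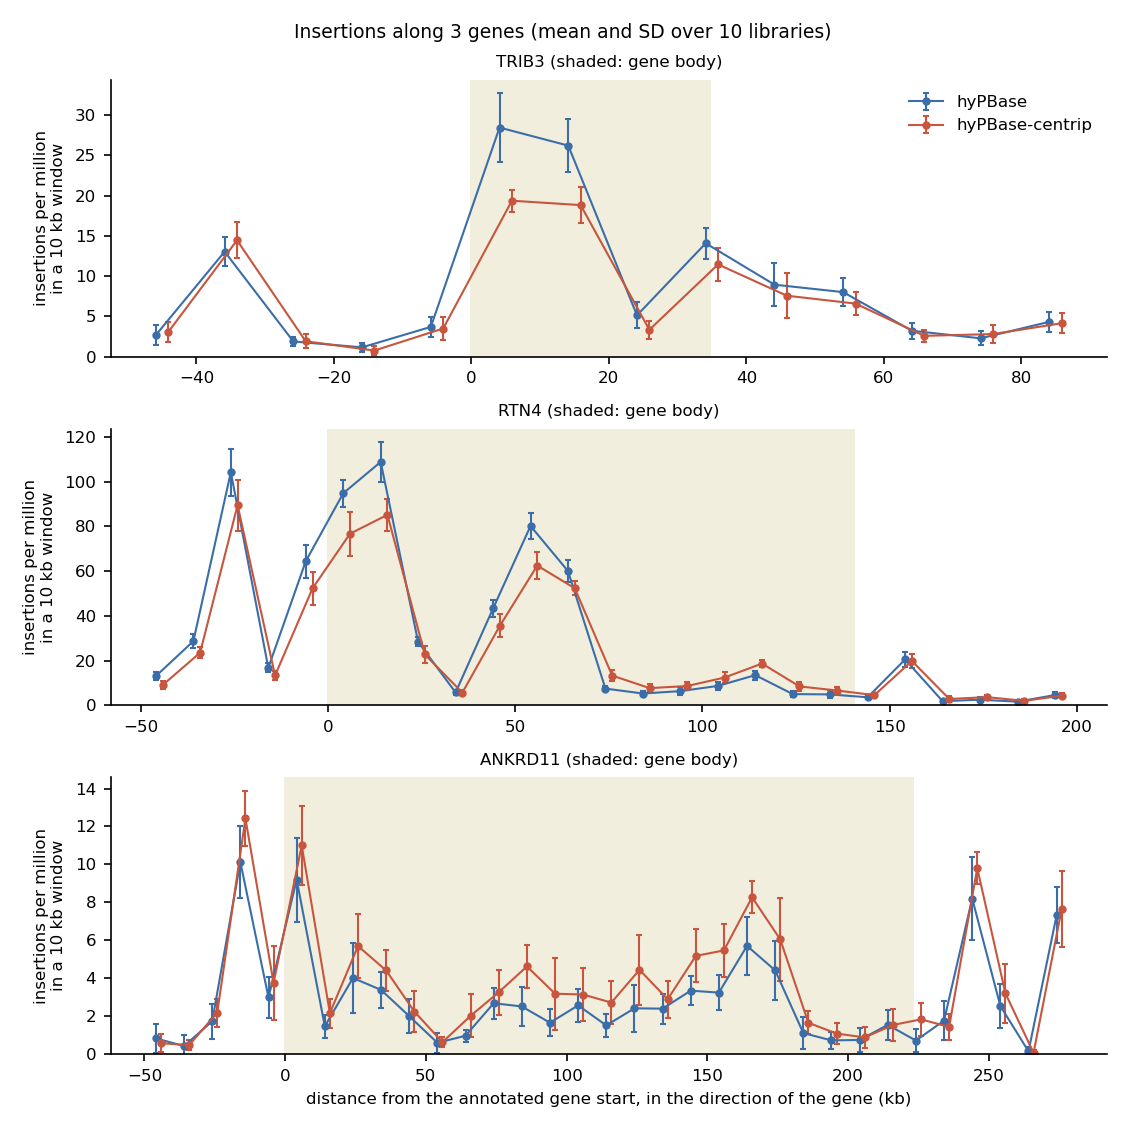
Mean ± SD of CPM over 10 libraries in 10 kb windows along TRIB3, RTN4 and ANKRD11, against the distance from the annotated gene start in the direction of the gene (kb), with the gene body shaded and hyPBase and hyPBase-centrip as separate lines. TRIB3 was lower with hyPBase-centrip in all 4 gene windows, ANKRD11 was higher in 22 of 23, and RTN4 was lower up to 70 kb and higher beyond it.

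The same test over 100 kb bins does not depend on the gene annotation. Of 27366 bins tested, 246 were lower with hyPBase-centrip (0.899%) and 174 were higher (0.636%). Bins without a protein-coding gene made up 17.9% of the lower bins and 18.4% of the higher bins, against 33.2% of the bins tested. Called bins also held more insertions, with a median hyPBase level of 145 CPM in lower and 43.6 in higher bins, against 20.7 in tested bins. The part of this level in the share of bins without a gene was not tested. A lower bin next to another lower bin was seen 52 times, with at most 4 in a row, and a higher one 19 times, with at most 3 in a row. The changed bins were thus mostly single bins spread over the genome.

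The lower bins of smallest adjusted p-value lay at the start of RTN4 on chromosome 2 (log2 fold change -0.30), on chromosome 6 from 43900001 to 44000000, inside GAB2 on chromosome 11 (-0.24) and near VSIG4 on chromosome X (-0.27). The chromosome 6 bin holds no protein-coding gene, with MRPL14 the nearest at 113451 bp. Its libraries ranged from 244 to 287 CPM (median 268) with hyPBase and from 197 to 248 (median 223) with hyPBase-centrip, which overlapped at the edge (log2 fold change -0.29). Of the higher bins, both chromosome 16 bins of smallest adjusted p-value lay in ANKRD11, with log2 fold changes of 0.59 and 0.40. The first of them did not overlap between the helpers, at 20.4 to 35.1 CPM with hyPBase and 37.5 to 57.6 with hyPBase-centrip. The other higher bins lay at APCDD1L on chromosome 20 (0.29) and across ERP27 and ARHGDIB on chromosome 12 (0.32). In the bin across ARHGDIB, hyPBase-centrip replicate 3 was the highest library at 84.5 CPM.

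The next comparison asked what kind of gene took the change. Calls were distributed unequally over genes of different TTAA density, and these counts are a description with no test of the difference. In the quintile of genes densest in TTAA (above 7.63 sites per kb), 121 of 3512 tested genes were lower (3.45%) and 13 were higher (0.370%). In the middle quintile 18 of 2979 were lower and 37 were higher, and in the sparsest 0 of 732 were lower and 6 were higher. The share of higher genes did not follow density, at 0.820%, 0.933%, 1.24%, 0.826% and 0.370% from the sparsest to the densest quintile. The genes that fell had a median of 8.23 TTAA per kb and those that rose 5.19, against 6.18 over all tested genes. Across the 12865 genes, which share libraries and depth, Spearman's rank correlation of the log2 fold change with TTAA per kb was -0.22, against -0.02 with gene length. By insertions per TTAA, the quintile of genes hit most densely held 127 lower and 35 higher genes of 3190 tested. Their median log2 fold change was -0.01, and Spearman's rank correlation with insertions per TTAA was -0.03. Bins showed the same order in TTAA density, with 73 lower and 4 higher in the densest quintile and 22 lower and 55 higher in the sparsest.

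**Figure D3:**
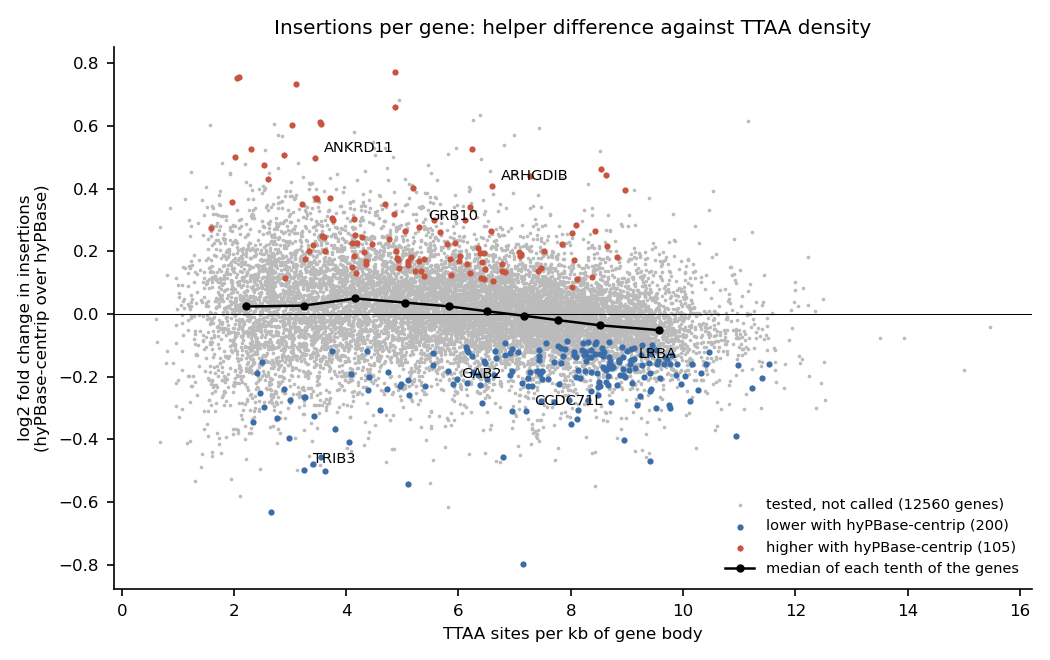
Log2 fold change in insertions (hyPBase-centrip over hyPBase) of each of 12865 tested genes against TTAA sites per kb of gene body, with called genes colored by direction and a black line for the median in 10 groups of genes ordered by TTAA density. The 200 lower genes gather at high TTAA density and the 105 higher genes at middle density, and most genes lie near 0.

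Per library, the densest quintile of genes took 38.2% to 40.5% of genic insertions with hyPBase (median 40.2%) and 36.0% to 39.8% with hyPBase-centrip (median 39.4%). The difference was -0.925 percentage points (two-sided permutation test, adjusted p = 0.0472), and the middle quintile gained 0.505 points (adjusted p = 0.0385). Both extremes belong to single libraries, hyPBase replicate 8 at 38.2% and hyPBase-centrip replicate 3 at 36.0%. Without hyPBase-centrip replicate 3 the differences were -0.583 and 0.338 points and no longer passed (adjusted p = 0.0916 and 0.0706), and without hyPBase replicate 8 they were -1.12 and 0.596 points (adjusted p = 0.000379 and 0.000325). The share of insertions inside any protein-coding gene was 53.6% ± 0.279 with hyPBase and 53.4% ± 0.303 with hyPBase-centrip (p = 0.174). None of the 5 classes of gene length differed, with adjusted p = 0.869 in each.

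Insertions with hyPBase-centrip lay slightly closer to the chromosome ends. Bins below 2 Mb from an end took 2.00% ± 0.0278 of insertions with hyPBase and 2.05% ± 0.0349 with hyPBase-centrip (permutation test, adjusted p = 0.0019). Those from 2 to 5 Mb rose from 3.62% to 3.70% (adjusted p = 0.0019) and those from 5 to 20 Mb from 21.4% to 21.6% (adjusted p = 0.00227). Bins from 20 to 50 Mb went from 41.28% to 41.19% (adjusted p = 0.0002) and those beyond 50 Mb from 31.7% to 31.5% (adjusted p = 0.0136). Libraries overlapped in all 5 classes. All 5 passed without hyPBase-centrip replicate 3, where the class beyond 50 Mb differed by -0.176 in place of -0.265 points, and without hyPBase replicate 8. Below 2 Mb, 2 bins were lower and 9 higher of 761 tested, and beyond 50 Mb, 97 were lower and 37 higher of 8547.

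Of the chromosomes, 18 gained most clearly, from 2.284% to 2.332% in the hyPBase libraries (median 2.311%) to 2.332% to 2.353% with hyPBase-centrip (median 2.347%). These ranges touched without overlap, and the difference was 0.0347 points (adjusted p = 0.00046). Chromosomes 14, 16 and 22 also gained, by 0.0190, 0.0637 and 0.0316 points, and chromosome 7 dropped by 0.0617 points. The other 18 chromosomes did not pass the test.

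Gene bodies of 20 lists of genes were compared in the same way, and few members changed. Over all tested genes 1.55% fell and 0.816% rose, and the lists were not tested against these shares. Among erythroid regulator genes, 2 of 11 tested fell and none rose. They were SOX6, a transcription factor that helps to silence fetal globin, from 1340 ± 47.7 to 1233 ± 65.0 CPM (log2 fold change -0.12), and KLF3, a repressor of erythroid promoters, from 90.8 ± 6.56 to 77.4 ± 5.99 (-0.23). The list as a whole went from 0.395% ± 0.00727 to 0.379% ± 0.00978 of genic insertions (permutation test, adjusted p = 0.0196), and it was the only one of the 20 lists to pass. Its libraries overlapped. SOX6 held 67061 insertions over the 20 libraries, more than any other member, so the share of the list leans on this gene. The list was not tested without SOX6. IKZF1, next with 23381 insertions, had 444 ± 25.5 and 460 ± 28.7 CPM and was not called. The median log2 fold change of the 11 members was 0.02, against 0.00 over all tested genes.

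Other hematopoietic genes changed singly, beside 1.55% lower and 0.816% higher over all tested genes. GATA2, a regulator of blood stem cells, fell from 31.5 ± 3.48 to 24.9 ± 2.01 CPM (log2 fold change -0.33), the only call among 9 tested stem and megakaryocyte genes. GYPB, a glycophorin of the red cell membrane, was the only call of 18 tested red cell membrane genes, from 76.0 ± 5.11 to 65.5 ± 5.20 CPM (-0.22). Of 17 tested genes of JAK-STAT and BCR-ABL1 signaling, GAB2 fell and ABL1, the kinase gene of the fusion, rose by 0.12 ± 0.0293 on the log2 scale. None of 14 heme and iron genes and 7 lymphoid and myeloid regulators was called.

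Gene families outside the blood lineage also gave few calls, to be read against 1.55% lower and 0.816% higher over all tested genes. Of 255 tested ZNF genes, 6 fell (ZNF609, ZNF618, ZNF785, ZNF800, ZNF706 and ZNF429) and 1 rose (ZNF280A), which is 2.35% and 0.392% of them. HOXB2 and HOXB7 fell, of 14 tested HOX genes, by 0.22 and 0.15 on the log2 scale. PBRM1 fell among 15 SWI/SNF genes, and IMMP2L among 20 very long fragile-site genes. GABRG3, a GABA receptor subunit gene, rose among 38 GABA and glutamate receptor genes (0.11), and PSMG4 among 31 genes of the proteasome list (0.22). PSMG4 encodes an assembly chaperone and not a subunit. None of 49 ribosomal protein, 24 Mediator, 21 histone, 54 olfactory receptor, 34 protocadherin, 5 keratin and 31 DNA replication genes was called.

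The bases at the insertion site were compared as a feature that neither the genes nor the bins use. None of the 10 hexamers formed by the TTAA and 1 base on each side passed the test, with 3 of them at an unadjusted permutation p below 0.05, but 6 passed without hyPBase replicate 8. Both helpers used the hexamers unequally, with 29.6% of insertions at TTTAAA, which makes up 17.8% of TTAA sites. GTTAAC, 2.03% of the sites, took 0.190% with either helper. Sites with G+C content below 28% in the 50 bases on either side took 10.3% ± 0.651 of insertions with hyPBase and 9.49% ± 0.695 with hyPBase-centrip (adjusted p = 0.0424). Sites from 36% to below 42% G+C rose from 26.8% to 27.2% (adjusted p = 0.0342). Without hyPBase-centrip replicate 3 neither class passed (adjusted p = 0.0805 and 0.0625), and without hyPBase replicate 8 all 5 classes of G+C passed.

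The orientation of insertions differed between the helpers more clearly than their position. The same-strand share was 32.5% ± 0.430 with hyPBase and 33.8% ± 0.274 with hyPBase-centrip, and every hyPBase-centrip library (33.5% to 34.3%) lay above every hyPBase library (31.9% to 33.1%). Expressed as shares of the library, same-strand insertions in genes rose from 17.0% to 17.6% (permutation test, p = 2e-05, the smallest the resamples can give) and opposite-strand insertions went from 35.3% to 34.5% (p = 0.00016). Per gene, the median same-strand share over 12325 tested genes was 30.8% with hyPBase, and 65.8% of genes had a higher share with hyPBase-centrip. By the edgeR test of orientation within libraries, 264 genes had a higher same-strand share (2.14%) and 11 a lower one (0.0892%). Measured relative to the shift of all genes, 23 were higher and 24 lower. With barcodes collapsed, 2 genes had a higher share by this test and 0 a lower one, while the difference over all genes was 1.26 points. Orientation was not tested with a term for reads per insertion.

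The shift grew with TTAA density. In the sparsest quintile of genes the same-strand share was 38.8% ± 0.416 and 38.9% ± 0.440 (difference 0.153 points, adjusted p = 0.430). The next quintiles rose by 0.382, 0.922, 1.23 and 1.59 points, the last 3 of them with no overlap between the helpers. The densest quintile went from 30.0% ± 0.531 to 31.6% ± 0.277. To test this gradient, the share in the densest quintile minus that in the sparsest was taken in each library, a comparison chosen after the values were seen. It was -8.80 ± 0.604 points with hyPBase and -7.35 ± 0.344 with hyPBase-centrip (permutation test, p = 6e-05). Genes below 2 Mb from a chromosome end rose by 0.618 points and those beyond 50 Mb by 1.38, and this difference was also tested after it was seen (0.759 points, p = 0.00036).

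**Figure D4:**
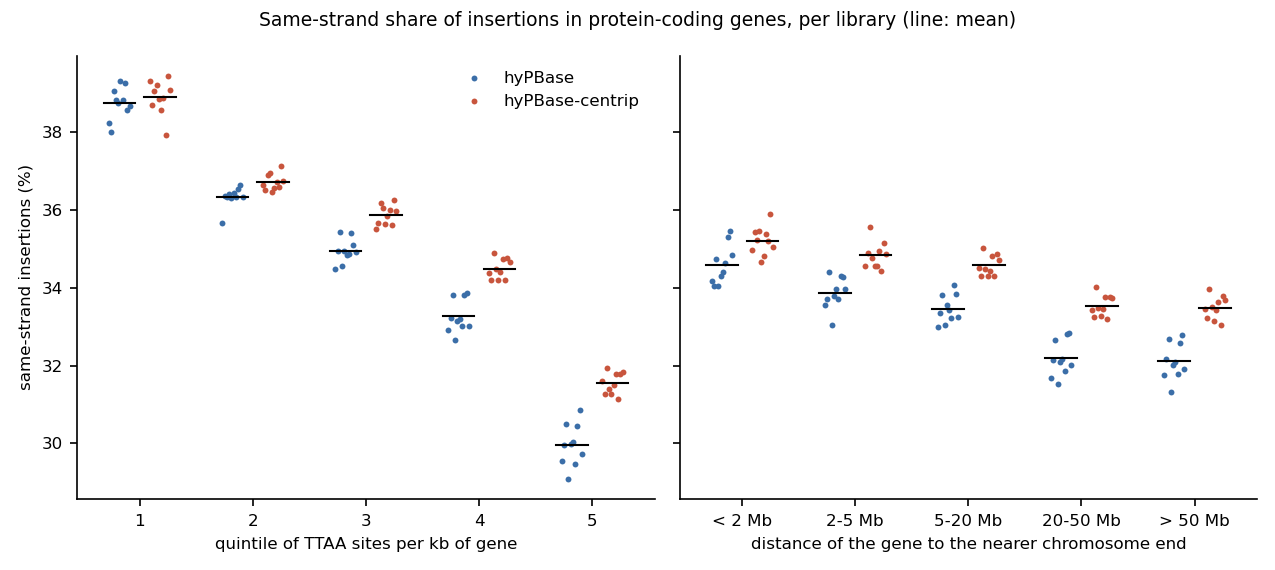
Same-strand share of insertions in protein-coding genes (%, y axis not starting at 0), 1 point per library with a line at the mean of 10 libraries, by quintile of TTAA sites per kb and by distance of the gene to the nearer chromosome end. The gap between hyPBase and hyPBase-centrip widened from 0.153 points in the TTAA-poorest quintile to 1.59 points in the richest.

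All 5 classes of gene length had a higher same-strand share, from 0.998 points below 10 kb to 1.36 points from 100 to 300 kb. Of the gene lists, erythroid regulators rose from 32.7% ± 0.695 to 35.1% ± 0.668 (adjusted p = 0.0003) and JAK-STAT and BCR-ABL1 signaling genes by 2.04 points from 31.0% ± 0.836 (adjusted p = 0.000133, no overlap). These compare with a rise of 1.29 points over all protein-coding genes, and the lists were not tested against that rise. SWI/SNF genes rose by 1.64 points, Mediator genes by 1.64, ZNF genes by 1.42, very long fragile-site genes by 1.26 and stem and megakaryocyte genes by 1.09 (adjusted p = 0.0112). Heme and iron genes rose by 2.59 points (adjusted p = 0.0407), which did not pass without hyPBase-centrip replicate 3 (adjusted p = 0.0663). Ribosomal protein genes had 28.1% with either helper (adjusted p = 0.962). Histone, olfactory receptor, protocadherin and keratin genes did not pass the test either, with differences between -0.786 and -0.105 points.

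Few members of these lists were called singly, against 2.14% higher and 0.0892% lower over all genes tested for orientation. SOX6, the member with the most insertions, was the only called gene of 11 erythroid regulators tested. The same-strand share of that list was not tested without it. Of the 17 signaling genes, GAB2 went from 26.5% to 29.0%, STAT5B from 46.2% to 50.5% and PIM1 from 15.3% to 21.5% same-strand. SLC11A2, an iron transporter gene, went from 13.2% to 17.6%, the only call of 12 heme and iron genes. Of 244 ZNF genes ZNF184, ZNF706, ZNF652 and ZNF407 were called, and of 20 very long fragile-site genes IMMP2L and CTNNA3, all 6 with a higher share. EPB41, the gene of the membrane skeleton protein 4.1, rose from 18.5% to 21.4%.

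LRBA gave the clearest change of orientation in a single gene. Its same-strand share ranged from 24.5% to 28.1% with hyPBase (median 26.0%) and from 27.6% to 31.5% with hyPBase-centrip (median 30.0%), on 20663 and 21232 insertions (adjusted p = 1.42e-12). The libraries overlapped by a small margin. Its opposite-strand insertions went from 624 to 533 CPM while its same-strand insertions were at 221 and 226. SOX6 went from 30.1% ± 0.774 to 33.1% ± 0.905, and ANK3, a membrane-cytoskeleton adaptor gene, from 38.8% ± 1.21 to 42.0% ± 1.02. ARHGAP18, a GTPase-activating protein gene, went from 29.3% ± 1.86 to 34.3% ± 2.02. PHKB, a phosphorylase kinase subunit gene, and PICALM, a clathrin assembly gene, reached 40.7% and 33.7% from 35.4% and 28.8%.

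RTN4 moved against the rest, from 46.3% ± 1.49 same-strand with hyPBase to 42.4% ± 1.42 with hyPBase-centrip (adjusted p = 9.66e-07). Here the same-strand insertions went from 219 to 177 CPM and the opposite-strand ones from 253 to 241. RHAG, the Rh-associated glycoprotein gene of red cells, also fell, with libraries from 53.6% to 59.9% (median 55.2%) and from 46.3% to 53.2% (median 51.1%) that did not overlap (adjusted p = 0.00856). Its number of insertions did not differ, at 145 ± 6.13 and 142 ± 6.81 CPM (log2 fold change -0.03, adjusted p = 0.739). SPRY3, SFMBT1, MLXIP and NOCT completed the 6 named genes with a lower share, and NOCT rested on 173 and 218 insertions. Of the 12 named genes, LRBA was the only one to pass with barcodes collapsed.

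Some genes were called for both position and orientation. Of the genes tested for both, 36 were called in both tests, 11.8% of the position calls and 13.1% of the orientation calls, and 31 of them fell in number while their same-strand share rose. Over all genes tested, 1.55% were lower and 0.816% higher by position, and 2.14% were higher and 0.0892% lower by orientation. The part of insertion number in the overlap was not tested. Across the 12325 genes tested for both, Spearman's rank correlation of the 2 log2 changes was -0.05. Among the 200 genes that fell, the median log2 ratio was -0.21 for opposite-strand insertions and -0.08 for same-strand insertions. Opposite-strand insertions were below 0 on the log2 scale in 199 of the 200 and same-strand insertions in 148. These genes were chosen for their fall, and over all 12546 genes measured the medians were -0.02 and 0.07. The same-strand ratio was above the opposite-strand ratio in 150 of the 200, in 61 of the 99 higher genes measured and in 8125 of all 12546. In ANKRD11 both orientations rose alike, with log2 ratios of 0.53 and 0.50, and in TRIB3 both fell alike, with -0.51 in each.

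Along the gene body, hyPBase-centrip insertions lay slightly further from the start. This was examined in 14856 genes of at least 10 kb, each cut into 10 equal segments from start to end, after the other values had been seen. The first segment took 16.0% ± 0.108 of the insertions with hyPBase and 15.8% ± 0.119 with hyPBase-centrip (difference -0.259 points, permutation test, adjusted p = 0.0008). The last segment took 9.25% ± 0.0219 and 9.38% ± 0.0338 (0.129 points, adjusted p = 0.0002), with no overlap between the helpers. Segments 2 and 3 also lost and segments 7 to 9 gained, whereas segments 4 to 6 did not pass the test. Without hyPBase-centrip replicate 3 the first and last segments differed by -0.283 and 0.124 points, and without hyPBase replicate 8 by -0.258 and 0.132. The same-strand share was higher with hyPBase-centrip in all 10 segments, by 1.76 points in the first and 0.883 in the last. The last segment had the highest same-strand share with both helpers, at 39.8% and 40.7%.

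**Figure D5:**
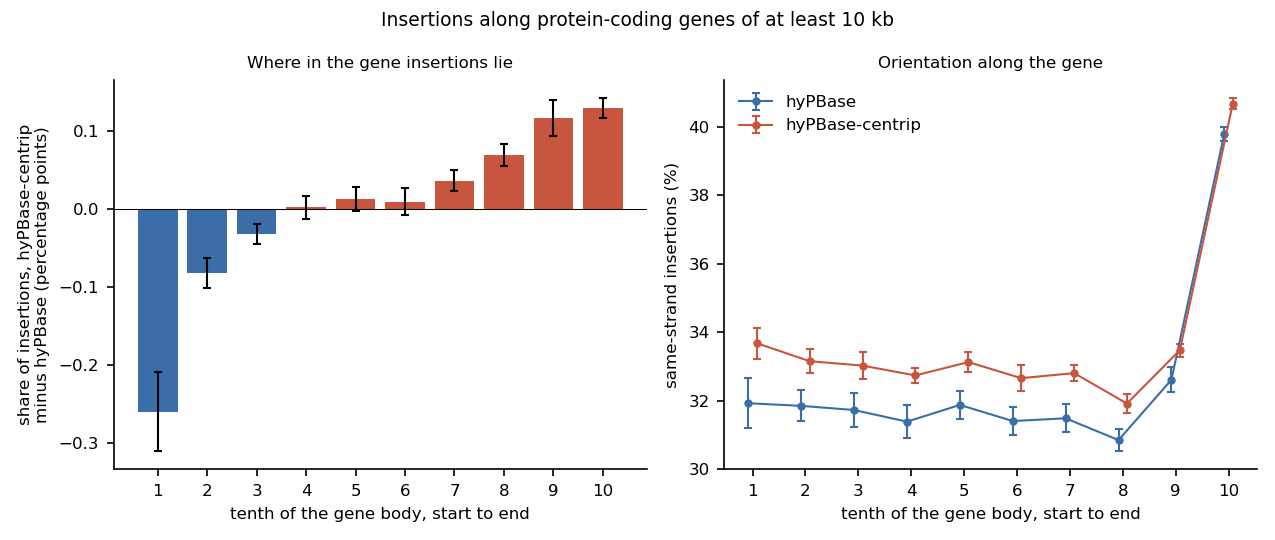
Left, the share of insertions in each of 10 equal segments of the gene body from start to end, hyPBase-centrip minus hyPBase in percentage points, with bars for the difference of means and error bars for its SE over 10 libraries per helper. Right, the same-strand share (%, y axis not starting at 0) as mean ± SD of 10 libraries. The difference runs from -0.259 points in the first segment to 0.129 in the last, and the same-strand share is higher with hyPBase-centrip in every segment.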

How the data were processed

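The authors deposited, for each library, a list of insertions with position, orientation, read count and a 4-base barcode, on hg38. The labels name Trimmomatic, SAMtools and BWA for the processing, with no versions. From these lists each line was counted as 1 insertion, and the deposited read counts were used only for depth, filters and reads per insertion. Insertions were assigned to gene bodies of GENCODE v44 protein-coding genes (5992 of 19970 overlap another gene, and an insertion in an overlap counts for each) and to 100 kb bins.

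Genes and bins that held 10 or more insertions in no fewer than 10 libraries were tested with edgeR 4.0.16 in R 4.3.3 (quasi-likelihood, TMM, library size on chromosomes 1 to 22 and X). Orientation was tested with edgeR on same-strand and opposite-strand counts of a gene within each library, counted where genes of 1 strand lie. Shares of classes were compared with two-sided permutation tests (100000 resamples, scipy 1.17.1), adjusted by Benjamini-Hochberg within each family of classes. The threshold was an adjusted p of 0.05. The models were run on simulated data with 200 known changes. At 1.25-fold the gene test recovered 115 with 15 false calls, and the bin test 95 with 6. At 1.5-fold they recovered 176 with 17 and 175 with 7. The orientation test recovered 36 with 3 false calls at a shift of 0.05 in the same-strand share, and 105 with 6 at 0.1. Smaller changes were not simulated, and of the called genes only 19 lower and 28 higher ones changed at least 1.25-fold.

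Named genes are the 12 per direction with the smallest adjusted p-values, skipping a gene that overlaps one already named, with 4 bins and 6 orientation genes per direction by the same rule, and the 2 members with most insertions of each list. A gene that fell and a list that these rules include are not reported here. List members were also named where the test called them, after their values were seen. The genes, lists and classes were chosen with earlier results of these data known. Counts limit each value by sampling, and intervals of counting error are not given beside values whose spread over libraries is shown. Between libraries of a helper, the chi-square of gene counts per degree of freedom had a median of 0.989 over 90 pairs and ranged from 0.930 to 1.61. A typical pair thus differed by about counting noise, and some pairs by more. Such pairs shared 10.2% to 15.1% of the insertions of the smaller library, and pairs of different helpers 8.78% to 14.9%, so no library was taken as a copy of another. Alternatives comprised read and barcode filters, rarefied reads, other scaling, filters and tests, terms for depth, gene start and busiest site left out, and libraries left out.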

Additional observations from a re-analysis of the deposited data

Results flagged for a closer look

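Of 138 groups of 10 libraries checked for a single library far from the rest, 24 held one. Chance alone gives about 1 in 20 for separate groups, but these groups share libraries and insertions, so the count cannot be judged against it. HyPBase-centrip replicate 3 and hyPBase replicate 8 made up most of them. Both stood on the same side of their helper: a low share of genic insertions in the TTAA-densest genes (35.97% and 38.21%), and a high share in the middle quintile (19.74% and 18.55%). They also had high shares of insertions at 2 to 5 Mb (3.871% and 3.713%) and at 5 to 20 Mb (22.15% and 21.68%) from a chromosome end. Beyond 50 Mb their shares were low (30.65% and 31.28%), as on chromosome 7 (6.433% and 6.519%). HyPBase-centrip replicate 3 was further high on chromosomes 16 (2.416%) and 22 (1.333%), and hyPBase replicate 8 was low at the sites of lowest G+C (8.627%). What sets these 2 libraries apart was not tested.

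In single genes, LRBA was low in both libraries, at 669.1 CPM in hyPBase-centrip replicate 3 and 743.0 CPM in hyPBase replicate 8. HyPBase-centrip replicate 3 was also low in IMMP2L (1028 CPM) and ATF7IP (101.2 CPM) and high in ARHGDIB (36.18 CPM) and CPPED1 (139.2 CPM). RTN4 was low in hyPBase replicate 3 (431.5 CPM) and SPATS2L high in hyPBase replicate 4 (129.9 CPM). The same-strand share of the second TTAA quintile was low in hyPBase replicate 1 (35.66%).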

How the results depend on the processing

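The same-strand difference over all genes kept its direction and passed under each alternative run, and 25 to 28 of 41 same-strand classes passed, against 28. Terms for reads per insertion and log10 insertions were not run for orientation. Calls of single genes and bins depended most on the processing. With barcodes collapsed, 13 genes were lower and 7 higher (200 and 105 as reported), 24 bins lower and 7 higher (246 and 174), and 2 genes had a higher and 0 a lower same-strand share (264 and 11). RTN4 then had a log2 fold change of 0.000503 (adjusted p = 0.999, edgeR), a change of sign. Its first 70 kb held 41.8 insertions per TTAA over the 20 libraries, and collapsing caps the count at each TTAA. The part of this cap in the changed value was not tested. With at least 2 reads per insertion, 133 genes were lower and 96 higher, 124 bins were lower and 165 higher, so that the excess of lower bins turned round, and 105 genes had a higher and 7 a lower same-strand share. With a term for reads per insertion, 40 genes were lower and 12 higher, and 93 bins lower and 20 higher. With a term for log10 insertions, 326 genes were lower and 212 higher, and 348 bins lower and 375 higher. With the 5 odd-numbered replicates of each helper, 44 genes were lower and 15 higher, 42 bins lower and 35 higher, and 39 genes had a higher and 2 a lower same-strand share. DESeq2 called 55 genes and 102 bins higher, and a binomial test on pooled insertions 206 genes higher. Bins of 1 Mb gave 125 lower and 134 higher. Barcodes of odd rank gave 67 lower and 29 higher genes, and those of even rank 41 and 20. For orientation, rarefied reads gave 116 higher and 6 lower, no filter 7 lower, and the change relative to the overall shift 23 higher and 24 lower. The cause of these moves was not tested.

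Of 69 classes of insertion share, 14 passed as reported, 8 with barcodes collapsed and 9 with distinct positions. The genic share then differed by -0.15 points and passed. Leaving out 1 of the 2 libraries that stood apart gave 18 and 22 classes, and for the 15 sequence classes (2 as reported) 0 and 11. Sequence classes passing were 0 with at least 2 reads, 1 with rarefied reads and 4 with the odd-numbered replicates. Without hyPBase replicate 8, 18 genes had a lower same-strand share. The second quintile of insertion density, 0.192 points higher as reported, changed sign with at least 2 reads (-0.011 points, p = 0.905). The alternatives with a term for reads per insertion, split barcodes, the busiest site left out, the shift subtracted and hyPBase replicate 8 left out were chosen after seeing the data.

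Replicate numbers do not pair the libraries: same-numbered libraries had correlated deviations of -0.046 to 0.038, and 1 of 10 correlated best with its own number. With a replicate block, 186 genes were lower and 104 higher, 190 bins lower and 153 higher, 246 genes had a higher and 12 a lower same-strand share, and 6 insertion share classes and 0 sequence classes passed. Depth limits single genes most: the called gene with the fewest insertions in the list of 1.5-fold changes, TBATA, rests on 187 insertions over 20 libraries.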
